A study of Nannospalax ehrenbergi and Mus musculus with 14 samples.

Results

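miR-206 and miR-133b are skeletal muscle microRNAs made from neighboring hairpins of a single locus. Their rows were taken by name from the deposited microRNA tables of *Spalax*, the blind mole rat, and of mouse. Both the 3p and the 5p arm of each hairpin were listed, which gave 4 of the 1326 microRNA names in each table. The question addressed was how these arms differ between the injected side (IS), where a lesion had grown after injection of the carcinogen 3-methylcholanthrene (3MCA), and the opposite, uninjected side (UIS).

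All animals had received a single subcutaneous dose of 3MCA into the left flank of the neck, so no library came from an untreated animal. spalax_600 and spalax_976 carried granulomas, benign lesions, and were operated on after 14 and 16 months. spalax_2240 and spalax_2230 carried fibrosarcomas, malignant tumors, and were operated on after 18 and 30 months. mouse_512, mouse_1023 and mouse_1019, of the C57BL/6 strain, carried fibrosarcomas and were operated on after 11, 12 and 14 weeks. The *Spalax* had been caught in the wild and their ages are estimates, whereas the mice were purchased and male. spalax_2230 was the only male *Spalax* and the last to be operated on, so its sex and time cannot be told apart. The IS sample was taken from the lesion and the UIS sample from neck muscle, and the labels call both muscle tissue. Each side of each animal gave a library, and the UIS column of 1 mouse carries a number that matches no label, so this library was used as a replicate of its group without a partner and is called the unpaired library.

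MicroRNAs are short RNAs cut from hairpin precursors that pair with messenger RNAs, mainly through the seed at their 5′ end, and lower the output of those messengers. miR-1, miR-133 and miR-206 are the classic microRNAs of striated muscle and are switched on by myogenic factors such as MyoD as myoblasts differentiate. miR-206 is restricted to skeletal muscle, is enriched in slow fibers and is known for its rise in newly formed fibers after injury or denervation. miR-133b shares its locus and, in the 3p arm, almost all of its letters with the far more abundant miR-133a.

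The mouse hairpins are shown because the counting of reads depends on what these microRNAs share with their relatives. Each is written 5′ to 3′ in DNA letters from GENCODE M21 (GRCm38), with the longest run shared between member and relative in capitals.
Mir206: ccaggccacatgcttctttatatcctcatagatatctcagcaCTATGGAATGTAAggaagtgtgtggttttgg
Mir1a-1: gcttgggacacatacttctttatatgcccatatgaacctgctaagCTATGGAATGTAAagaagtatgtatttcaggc
Mir133b: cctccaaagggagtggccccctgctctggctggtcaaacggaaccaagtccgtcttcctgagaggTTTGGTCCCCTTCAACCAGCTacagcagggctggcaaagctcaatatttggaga
Mir133a-2: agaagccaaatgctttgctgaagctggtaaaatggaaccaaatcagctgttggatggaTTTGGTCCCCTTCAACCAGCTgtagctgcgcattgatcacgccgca

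Mir206 and Mir1a-1 share a run of 13 bases on the 3p side of the hairpin, and Mir133b and Mir133a-2 share a run of 21 bases there. Counted from the first base of the run, the next base differs as G14A between Mir206 and Mir1a-1 and as A22G between Mir133b and Mir133a-2. Each run was present in 3 of the 2201 mouse microRNA hairpins of the annotation (0.136%), namely the member and the copies of its relative. A read of the 3p arm of miR-133b therefore differs from a miR-133a read mainly at its last bases, and reads of these arms could have been divided unevenly by the counting. Outside the capitals the hairpins differ at many positions, which includes the 5p arms.

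Mir206 (ENSMUSG00000065559.1) lies on the plus strand of mouse chromosome 1 at chr1:20679010-20679082, and Mir133b (ENSMUSG00000065480.1) at chr1:20682769-20682887, with 3686 bases between them. Both lie within the long noncoding gene Gm28653 (chr1:20669882-20684298), which has 2 annotated transcripts on the same strand. Mir133b falls in exon 3 of the spliced transcript of Gm28653 and inside the single exon of the unspliced transcript. Mir206 falls in an intron of the spliced transcript and overlaps the exon of the unspliced transcript by 60 of its 73 bases. Mir1a-1 and Mir133a-2 lie on chromosome 2 at chr2:180389048-180389124 and chr2:180398379-180398482.

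**Figure D1:**
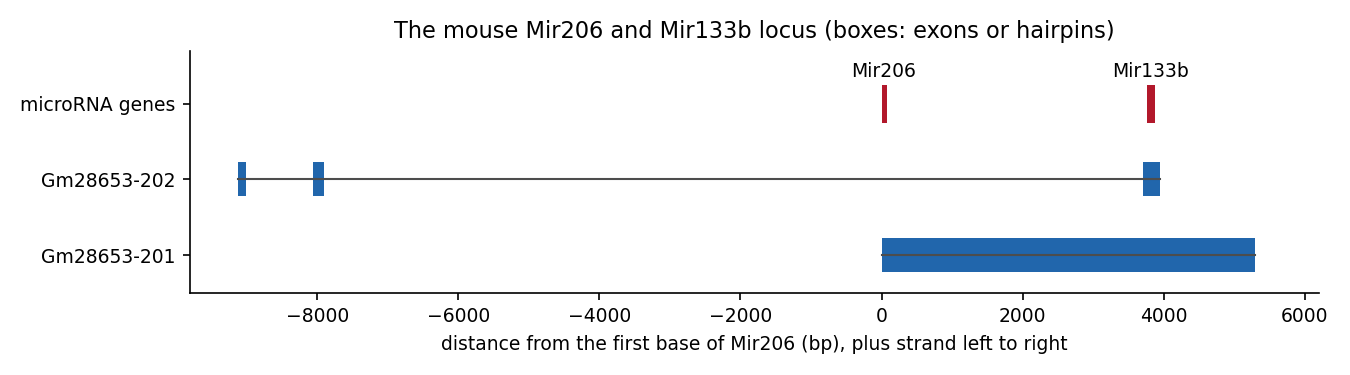
Mouse locus in GRCm38. The horizontal axis is the distance from the first base of Mir206 in bp, red boxes are the microRNA hairpins, blue boxes the exons of the Gm28653 transcripts and thin lines the extent of each transcript. Both hairpins lie within Gm28653, and Mir133b starts 3759 bp after the start of Mir206.

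The libraries held 2034574 to 13982842 reads on microRNAs. A normalized count is the deposited value, namely reads divided by a size factor of the library, and the whole reads behind it were recovered. The labelled tissue was checked against 4 skeletal muscle microRNAs (miR-499-5p, miR-133a-3p, miR-208b-3p and miR-1a-3p). Their summed share of all reads was 27.3% to 29.4% in the mouse UIS libraries and 34.6% to 36.7% in the *Spalax* UIS libraries. At the IS it was 0.00936% and 0.159% for granuloma, 0.0109% and 0.0131% for fibrosarcoma of *Spalax*, and 0.00931% to 3.42% for fibrosarcoma of mouse. The summed share of 3 fibroblast microRNAs (miR-199a-3p, miR-199a-5p and miR-214-3p) was 0.231% to 1.00% over all UIS libraries and 3.02% to 11.1% over all IS libraries, and that of 3 myeloid microRNAs (miR-223-3p, miR-142a-3p and miR-142a-5p) was 0.0238% to 0.0567% and 0.314% to 2.25%. In the limma fit, all 3 myeloid markers rose in both *Spalax* comparisons and 2 of 3 in mouse, and all 3 fibroblast markers rose in granuloma and in mouse but 0 of 3 in *Spalax* fibrosarcoma. Both endothelial markers (the arms of miR-126a) fell in all 3 comparisons, the lymphocyte marker fell in granuloma, 0 of 2 red cell markers passed, and of the epithelial markers 1 of 5 rose in each *Spalax* comparison and 1 of 4 fell in mouse. Over all tested microRNAs 25.5% rose and 22.8% fell in granuloma, 15.2% and 22.1% in *Spalax* fibrosarcoma, and 32.2% and 25.6% in mouse. With reads scaled to the library totals, 0 of the endothelial markers and 0 of 1 lymphocyte marker fell, all 3 fibroblast markers rose in *Spalax* fibrosarcoma too, all 3 myeloid markers rose in mouse too, and epithelial markers rose in 4 of 5 (granuloma), 3 of 5 (*Spalax* fibrosarcoma) and 2 of 4 (mouse), with 0 falling. Under that scaling 303 and 234 of 447 *Spalax* microRNAs and 404 of 547 mouse microRNAs were called. Rises made up 83.5%, 82.5% and 92.3% of these calls, so the rises that this scaling added do not single out a cell type. By these markers the UIS was muscle and the IS held little of the muscle that its label names, and the part of this change of tissue in the results below was not tested. In tissue RNA, fewer muscle fibers and less of a microRNA in each fiber cannot be told apart.

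At the UIS of *Spalax*, miR-206-3p was an abundant and even microRNA. Its normalized count was 19192 in spalax_600, 21872 in spalax_976, 22845 in spalax_2240 and 26058 in spalax_2230, from 13543 to 21650 reads. At the mouse UIS the normalized count was 2978 in the unpaired library, 2159 in mouse_1023 and 1426 in mouse_512, from 742 to 2194 reads. The lowest *Spalax* library therefore stood above the highest mouse library, although these values come from tables that were normalized separately.

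miR-133b-3p was more abundant than miR-206-3p at the UIS and similar in the 2 species. Its normalized count was 67762 in spalax_600, 67107 in spalax_976, 69374 in spalax_2240 and 53830 in spalax_2230. In the mice it was 55048 in the unpaired library, 60383 in mouse_1023 and 88772 in mouse_512. The species overlapped in these values.

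As a share of all reads, which does not depend on the size factors, miR-206-3p took 1507 ± 288 of 1000000 reads (SD, n = 4) at the *Spalax* UIS and 121 ± 69.4 (SD, n = 3) at the mouse UIS, a ratio of means of 12.5. On the common scale of the *Spalax* table, which lists 2 of the mouse UIS libraries, this ratio was 16.1. For miR-133b-3p the corresponding shares were 4286 ± 479 (SD, n = 4) and 3371 ± 150 (SD, n = 3), a ratio of 1.27. For miR-1a-3p and miR-133a-3p the ratios were 2.06 and 1.23. The excess at the *Spalax* UIS was not confined to miR-206-3p. Mean shares of miR-499-5p were 342 (granuloma animals) and 247.5 (fibrosarcoma animals) of 1000000 reads, against 24.98 at the mouse UIS. Those of miR-208b-3p were 267.9 and 227.5, against 61.4. The cause of these differences between species was not tested.

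The number of miR-206-3p reads for every 100 miR-133b-3p reads compares the cluster's 3p rows within a library. An unknown number of miR-133a reads may be listed under miR-133b-3p, so the ratio need not be one of the cluster's own products. At the *Spalax* UIS it was 28.3 in spalax_600, 32.6 in spalax_976, 32.9 in spalax_2240 and 48.4 in spalax_2230. At the mouse UIS it was 5.41 in the unpaired library, 3.58 in mouse_1023 and 1.61 in mouse_512. All *Spalax* libraries lay above all mouse libraries, with a mean log2 ratio of -1.52 ± 0.33 (SD, n = 4) against -4.99 ± 0.89 (SD, n = 3), an 11.1-fold difference (exact two-sided permutation test, p = 0.0571, the smallest p that 4 against 3 libraries can give). Reads of both species were assigned to mouse names, and the part of sequence differences between *Spalax* and mouse in this ratio was not tested.

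In granuloma, both 3p arms fell to a small fraction of their UIS level. The normalized count of miR-206-3p at the IS was 69.9 in spalax_600 (56 reads) and 0 in spalax_976 (0 reads, which allows a share of up to 8.49e-05% of its reads). That of miR-133b-3p was 178 in spalax_600 (143 reads) and 7.60 in spalax_976 (6 reads). The granuloma of spalax_600 thus kept more of both arms than that of spalax_976, and neither came near the UIS values.

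Within spalax_600, miR-206-3p was 275-fold lower at the IS than at the UIS (95% counting interval 211 to 364), and miR-133b-3p was 380-fold lower (322 to 451). Within spalax_976, miR-206-3p was at least 5755-fold lower, taken against 3 reads in the IS library, and miR-133b-3p was 8829-fold lower (4056 to 24059). As a share of all reads the falls were smaller, 74.8-fold and 103-fold in spalax_600 and at least 1639-fold and 2515-fold in spalax_976. Intervals and limits given here cover counting error only, since reads carry no molecular identifiers.

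In the fit across all microRNAs, the log2 fold change in granuloma was -11.25 (SE 1.64) for miR-206-3p, with limma's adjusted p = 0.00174. For miR-133b-3p it was -10.75 (SE 1.24), with limma's adjusted p = 0.000677. Of the 447 microRNAs tested in *Spalax*, 48.3% changed in granuloma (25.5% rose and 22.8% fell), so a fall as such was common, whereas the 2 arms ranked 4th and 5th of the 447 from the largest fall. With reads scaled to the library totals, 83.5% of the changes were rises, against 52.8% here. miR-206-3p had passed the filter on low values only through its UIS libraries, so its p and rank add no support to the fall. miR-133b-3p also reached the filter's value of 10 in the IS libraries of spalax_600 (178) and spalax_2240 (10.8).

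In the *Spalax* fibrosarcomas, the 3p arms were close to the limit of detection. miR-206-3p had 1 read in the tumor of spalax_2240 and 4 reads in that of spalax_2230, a normalized count of 2.17 and 2.18. miR-133b-3p had 5 and 7 reads, a normalized count of 10.8 and 3.81. Both tumors were far below the UIS libraries of the same animals.

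Within spalax_2240, miR-206-3p was 10529-fold lower at the IS with a counting interval of 1890 to 415888, because the tumor value rests on a single read, and miR-133b-3p was 6395-fold lower (2740 to 19695). Within spalax_2230 the corresponding values were 11965-fold (4672 to 43918) and 14124-fold (6855 to 35132). As a share of all reads the falls were 3309-fold and 2010-fold in spalax_2240 and 3673-fold and 4336-fold in spalax_2230. Over both animals the log2 fold change was -12.91 (SE 1.64) for miR-206-3p, with limma's adjusted p = 0.00116. For miR-133b-3p it was -12.98 (SE 1.24), with limma's adjusted p = 0.00054. Here 37.4% of the 447 microRNAs changed (15.2% rose and 22.1% fell), and the arms ranked 5th and 4th from the largest fall. With reads scaled to the library totals, 82.5% of the changes were rises, against 40.7% here. As in granuloma, miR-206-3p had passed the filter only through its UIS libraries, so its p and rank add no support to the fall.

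**Figure D2:**
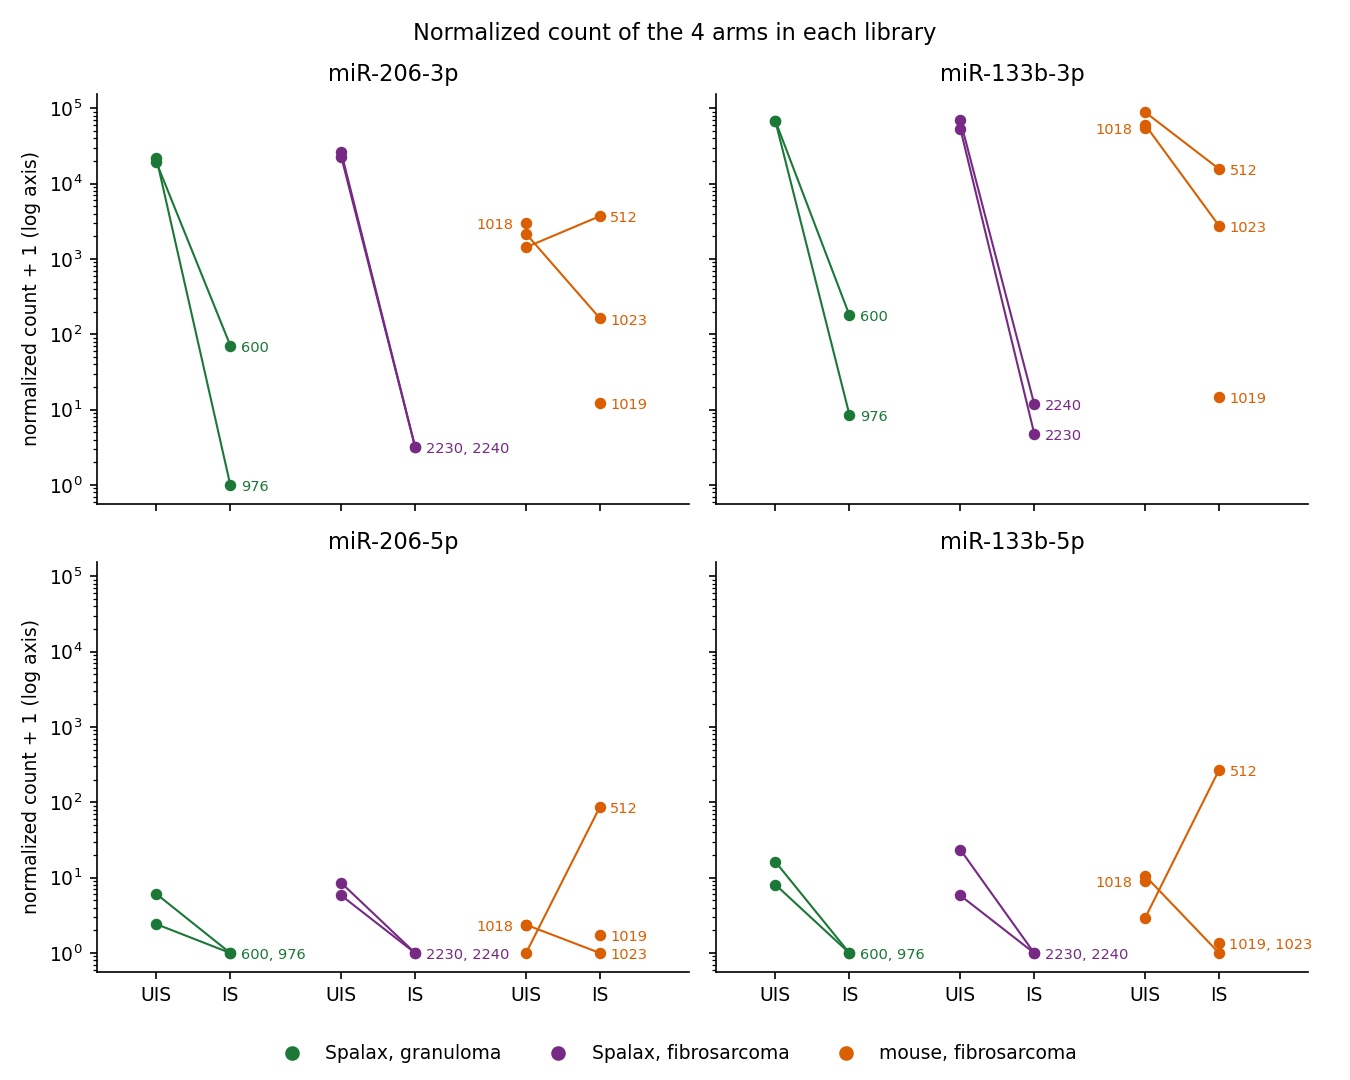
Normalized count plus 1, on a log axis, of each of the 4 arms in each library, with UIS and IS of an animal joined by a line and the animal number beside the point; the numbered mouse UIS point is the unpaired library. At the IS of *Spalax* every arm lay below its UIS value, whereas in mouse_512 the tumor lay above the UIS for miR-206-3p, miR-206-5p and miR-133b-5p.

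Granuloma and fibrosarcoma were also set against each other in *Spalax*. The fall in granuloma was smaller than that in fibrosarcoma by 1.66 (SE 2.31) on the log2 scale for miR-206-3p (limma's adjusted p = 0.756) and by 2.24 (SE 1.75) for miR-133b-3p (limma's adjusted p = 0.556), and 3.8% of the 447 microRNAs passed this test (17, or 5 with the animal as a block). The IS libraries of granuloma exceeded those of fibrosarcoma by 1.41 (SE 1.64; limma's adjusted p = 0.608) and 2.38 (SE 1.24; limma's adjusted p = 0.269), where 18.8% of all tested microRNAs differed (15.4% higher and 3.36% lower in granuloma). DESeq2 called both IS differences, at 3.84 (adjusted p = 0.0227) and 3.64 (adjusted p = 0.00593). The 2 granulomas lay on either side of the fibrosarcomas for miR-206-3p. Without the granuloma library of spalax_600 the IS difference of miR-206-3p turned to -1.67, which sets 0 reads against 1 and 4 reads. Without that of spalax_976 it rose to 4.48. For miR-133b-3p the corresponding IS differences were 0.19 (limma's adjusted p = 0.911) and 4.57 (limma's adjusted p = 0.00368). The UIS of granuloma and fibrosarcoma animals differed by -0.25 (SE 1.64) for miR-206-3p and 0.14 (SE 1.24) for miR-133b-3p, with limma's adjusted p = 1 for each, and 0 of the 447 microRNAs passed this test with limma, edgeR or DESeq2. At an unadjusted p under 0.05 these tools found 5, 7 and 10 microRNAs.

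The mouse fibrosarcomas did not share a single level of either 3p arm. The normalized count of miR-206-3p at the IS was 11.2 in mouse_1019 (31 reads), 161 in mouse_1023 (223 reads) and 3703 in mouse_512 (3332 reads). That of miR-133b-3p was 13.8 in mouse_1019 (38 reads), 2749 in mouse_1023 (3804 reads) and 15621 in mouse_512 (14057 reads). Tumor and UIS overlapped for miR-206-3p, where mouse_512 held the highest value of all mouse libraries, and did not overlap for miR-133b-3p, where the highest tumor was below the lowest UIS library. As a share of all reads this order turned for miR-133b-3p, with 4068 of 1000000 reads in the tumor of mouse_512 against 3268 to 3543 at the mouse UIS.

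The log2 fold change of miR-206-3p in mouse fibrosarcoma was -3.43 (SE 1.84), with limma's adjusted p = 0.148, and that of miR-133b-3p was -6.28 (SE 2.31), with limma's adjusted p = 0.0512, so neither passed the threshold in a comparison in which 57.8% of 547 microRNAs changed (32.2% rose and 25.6% fell). With reads scaled to the library totals, 92.3% of the changes were rises, against 55.7% here. They ranked 39th and 6th of the 547 from the lowest value. Under scaling to total reads, the change of miR-206-3p was -1.07 (limma's adjusted p = 0.607) and that of miR-133b-3p was -3.91 (limma's adjusted p = 0.143). With edgeR they were -0.65 (adjusted p = 0.725) and -3.35 (adjusted p = 0.125), and with DESeq2 -0.82 (adjusted p = 0.618) and -3.54 (adjusted p = 0.0249). Paired within the 2 mice that have both sides, with the animal as a block, the change of miR-206-3p was -1.18 (limma's adjusted p = 0.423) and that of miR-133b-3p was -3.48 (limma's adjusted p = 0.00551). Without the tumor of mouse_512 the change of miR-206-3p was -5.55 (limma's adjusted p = 0.00832) and that of miR-133b-3p was -8.37 (limma's adjusted p = 0.0162). Without the tumor of mouse_1019 the values were -1.43 (limma's adjusted p = 0.354) and -3.34 (limma's adjusted p = 0.0116). Whether the fall differed between *Spalax* and mouse was not tested.

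Within mouse_1023, miR-206-3p was 13.4-fold lower in the tumor than at the UIS (11.6 to 15.5) and miR-133b-3p was 22.0-fold lower (21.2 to 22.7). Within mouse_512 the direction differed between the arms. miR-206-3p was 2.60-fold higher in the tumor (2.40 to 2.82) and miR-133b-3p was 5.68-fold lower (5.58 to 5.79). As a share of all reads, miR-206-3p was 18.2-fold higher in this tumor (16.8 to 19.7) and miR-133b-3p was 1.23-fold higher (1.21 to 1.25), so for miR-133b-3p in this mouse the direction depends on the scaling. In mouse_1023 the shares of all reads were 2.96-fold and 4.85-fold lower in the tumor.

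The tumors of mouse_512 and mouse_1023 held similar levels of the major muscle microRNAs. The normalized count of miR-133a-3p was 128284 in the tumor of mouse_512 and 98037 in that of mouse_1023, and that of miR-1a-3p was 2302 and 2908. Against these, the miR-206-3p values of 3703 and 161 and the miR-133b-3p values of 15621 and 2749 lay far apart. In mouse_512 the UIS values were 7225380 for miR-133a-3p and 110216 for miR-1a-3p, so in this mouse the relatives were 56.3-fold (56.0 to 56.7) and 47.9-fold (45.8 to 50.0) lower in the tumor while miR-206-3p was higher.

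Ratios of reads within a library make the same comparison without any size factor. The hairpins of miR-1a and miR-206 share the 13-base run. For every 100 reads of miR-1a-3p, the mouse UIS libraries held 1.29 to 2.63 reads of miR-206-3p and the *Spalax* UIS libraries 6.21 to 14.0. In the mouse tumors the value was 5.54 in mouse_1023, 77.5 in mouse_1019 (31 against 40 reads) and 161 in mouse_512 (95% interval 152 to 170). In the granuloma of spalax_600 it was 38.9 (28.0 to 53.3) against 6.21 at its UIS, whereas in that of spalax_976 it was 0 (0 against 16 reads, interval 0 to 25.9) against 12.7 at its UIS. In the 2 *Spalax* fibrosarcomas, at 1 and 4 reads of miR-206-3p, the intervals of the tumor ratio included the UIS ratio.

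The ratio of miR-133b-3p to miR-133a-3p was the steadiest of these at the UIS, with 1.14 to 1.43 reads of miR-133b-3p for every 100 of miR-133a-3p in all 7 libraries of both species. In tumors it was 2.80 (2.71 to 2.90) in mouse_1023, 4.49 (3.16 to 6.22) in mouse_1019, 12.2 (12.0 to 12.4) in mouse_512 and 2.59 (2.18 to 3.06) in the granuloma of spalax_600. It was 1.92 (0.700 to 4.23) in spalax_976, 2.40 (0.772 to 5.70) in spalax_2240 and 0.713 (0.286 to 1.47) in spalax_2230, where the intervals included the UIS values. Since the 2 microRNAs share most of the 3p arm, the number of miR-133a reads that were listed under miR-133b is unknown.

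Over the 6 animals with both sides, with 1 read added to each count, each of the 3 ratios was higher at the IS in 5 animals, and none passed the test. Without the added read the ratio was higher at the IS in 4 animals for miR-206-3p to miR-133b-3p, in 3 for miR-206-3p to miR-1a-3p and in 5 for miR-133b-3p to miR-133a-3p. The mean log2 difference was 0.71 ± 1.69 (SD, n = 6) for miR-206-3p to miR-133b-3p (exact two-sided sign-flip permutation test, p = 0.406, Benjamini-Hochberg adjusted over the 3 ratios 0.406). It was 1.84 ± 2.86 (SD, n = 6) for miR-206-3p to miR-1a-3p (exact permutation p = 0.156, adjusted 0.234). It was 1.17 ± 1.22 (SD, n = 6) for miR-133b-3p to miR-133a-3p (exact permutation p = 0.0625, adjusted 0.188). The smallest p that 6 pairs can give is 0.0312. The library pair of mouse_512 had the largest difference in all 3 ratios, 3.88, 6.96 and 3.31, and without it the means were 0.08, 0.81 and 0.74.

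**Figure D3:**
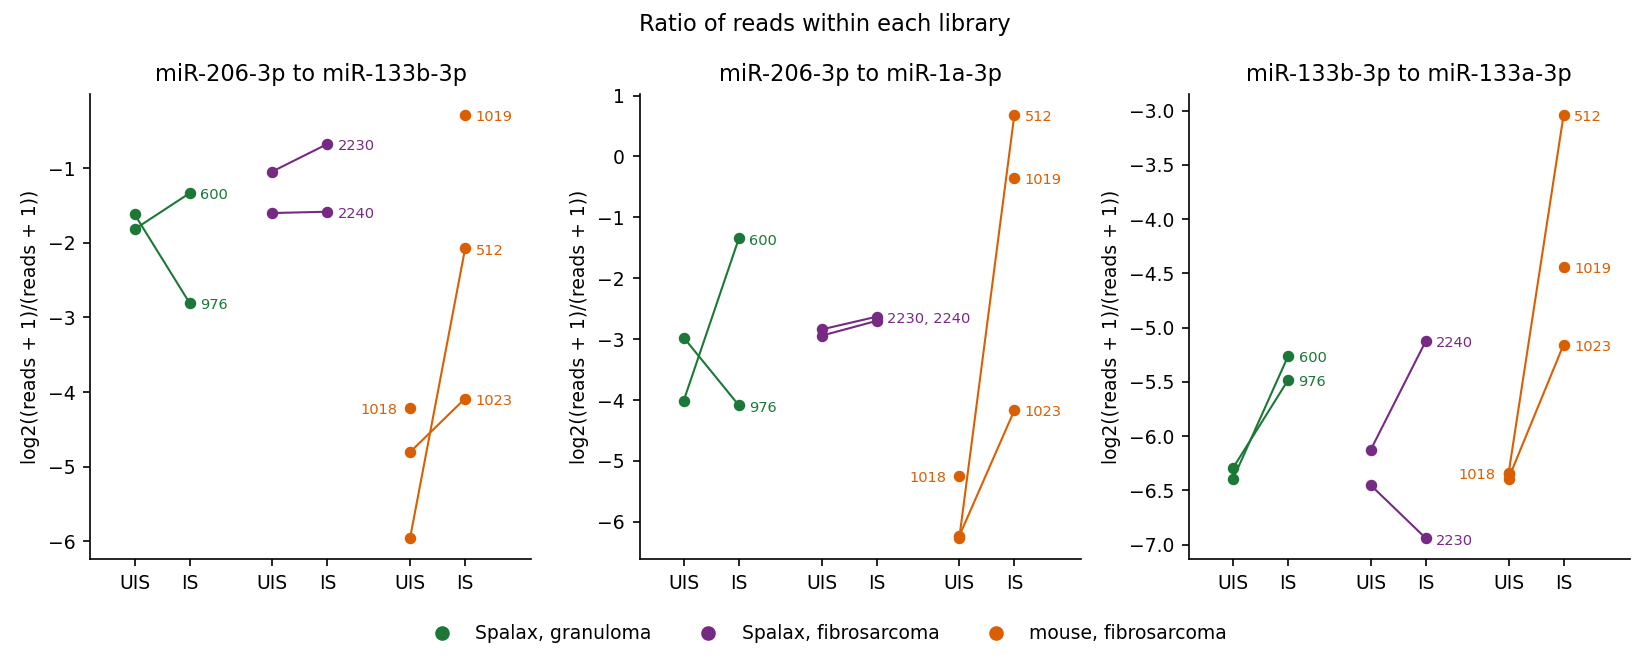
Log2 ratio of reads, each plus 1, of the named pairs within each library, with the sides of an animal joined by a line and the animal number beside the point. The miR-133b-3p to miR-133a-3p ratio was nearly the same in the 7 UIS libraries, and mouse_512 rose in all 3 panels.

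The 5p arms, the less abundant strands of the hairpins, gave few reads except in a single tumor. At the UIS, miR-206-5p had 0 to 7 reads and miR-133b-5p 1 to 21 reads over the 7 libraries. All 4 *Spalax* IS libraries had 0 reads of each, which allows shares of up to 3.75e-05% to 0.000147% of their reads. In the mouse tumors miR-206-5p had 2 reads in mouse_1019, 0 in mouse_1023 and 78 in mouse_512, and miR-133b-5p had 1, 0 and 242. The tumor of mouse_512 was thus far above the other 13 libraries in both 5p arms.

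Within mouse_512, miR-206-5p had 0 reads at the UIS, so its normalized count was at least 15.0-fold higher in the tumor, taken against 3 reads. miR-133b-5p had 1 read at the UIS and was 140-fold higher in the tumor with a counting interval of 24.9 to 5550. For every 100 reads of its own 3p arm, the tumor of mouse_512 held 2.34 reads of miR-206-5p (1.85 to 2.93), and the UIS libraries of all animals held at most 0.0636. For miR-133b-5p the tumor value was 1.72 (1.51 to 1.95) and the UIS values were 0.00216 to 0.0326. The tumor of mouse_1019 held 6.45 (0.748 to 25.4, from 2 reads) and 2.63 (0.0649 to 15.6, from 1 read), so 5p shares above the UIS range were listed there too, from very few reads. The 5p arms of miR-133b and miR-133a differ more than their 3p arms do, and in the tumor of mouse_512 there were 30.5 reads of miR-133b-5p for every 100 of miR-133a-5p, against 0.0133 at its UIS.

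In *Spalax*, miR-133b-5p passed the filter through its UIS libraries, where it is higher, so the direction of its change was fixed by the filter and no test of it is given. It had 5 reads at the UIS of spalax_600, 12 in spalax_976, 21 in spalax_2240 and 4 in spalax_2230, and 0 reads at the IS of each. At these counts a fall as a share of all reads was not detectable in any of these animals. The upper 95% counting limit of IS over UIS was 3.53 in spalax_600, 1.26 in spalax_976, 1.23 in spalax_2240 and 2.23 in spalax_2230. On normalized counts these limits were 0.961, 0.359, 0.387 and 0.685, so whether a fall is seen depends on the scaling. miR-206-5p passed the filter in neither species and miR-133b-5p did not pass it in mouse, so they were not tested there.

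The other muscle microRNAs fell with the cluster in *Spalax*. Of a list of 14 muscle microRNAs (the arms of miR-1, miR-133a, miR-208 and miR-499 and miR-133c), 8 were tested in *Spalax* and all 8 of these fell in both granuloma and fibrosarcoma, with a median log2 fold change of -9.50 and -9.96 against 0.13 and -0.23 over all tested microRNAs, of which 22.8% and 22.1% fell. These medians were the same with the 1 and 4 of them that had 0 reads in every IS library of the comparison set to the bound of 3 reads. Only miR-1a-3p and miR-133a-3p reached the filter's value of 10 in 2 or more IS libraries. The rest of the 8 passed only through the UIS, so their direction was fixed by the filter and their falls are no test. miR-1a-3p and miR-133a-3p stood at -11.86 and -11.69 in granuloma and -13.03 and -13.24 in *Spalax* fibrosarcoma (limma's adjusted p from 0.000151 to 0.000404). In mouse, 6 were tested and 4 fell, with a median of -6.18 against 0.21 over all tested, of which 25.6% fell, and 2 fell with reads scaled to the library totals. Only miR-1a-3p and miR-133a-3p reached the value of 10 in all 3 mouse IS libraries. The others passed the filter only with UIS libraries, so the falls of miR-133a-5p and miR-1a-1-5p, and the median that includes them, are no test in mouse. There the log2 fold changes of miR-1a-3p and miR-133a-3p were -8.07 and -8.44 (limma's adjusted p = 0.0109 and 0.0157). The 2 that did not pass were microRNAs encoded in slow myosin genes, miR-208b-3p at -2.91 (limma's adjusted p = 0.299) and miR-499-5p at -3.82 (limma's adjusted p = 0.0882). miR-208b-3p was also higher in the tumor of mouse_512 than at its UIS, with a normalized count of 570 against 80.7. That UIS library was the lowest of the mouse UIS libraries, which ran up to 1721, so this tumor stood below the highest of them. In mouse_1023 the tumor was lower, at 381 against 1721.

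A list of 23 microRNAs of muscle stem cells and regeneration moved in both directions, and its median log2 fold change was -0.22 (granuloma), -0.37 (*Spalax* fibrosarcoma) and -0.28 (mouse). In granuloma 9 of the 22 tested rose and 9 fell, in *Spalax* fibrosarcoma 4 rose and 8 fell, and in mouse fibrosarcoma 8 rose and 8 fell. Over all tested microRNAs the shares that rose and fell were 25.5% and 22.8%, 15.2% and 22.1%, and 32.2% and 25.6%, so several of these counts, such as the rises in *Spalax* and mouse fibrosarcoma, lie near the background. This split depends on the scaling, since with reads scaled to the library totals 12 rose and 5 fell, 10 rose and 5 fell, and 16 rose and 4 fell. Under that scaling 303 and 234 of the 447 *Spalax* microRNAs and 404 of the 547 mouse microRNAs were called. Of these calls 83.5%, 82.5% and 92.3% were rises, so the rises of the list lie near that background. miR-486a-5p and miR-486b-5p of this list carry the same values and count as 2 of the falls in each comparison. miR-221-3p and miR-222-3p, which restrain the exit of myoblasts from the cell cycle, rose by 3.75 and 4.36 in granuloma, 4.43 and 4.81 in *Spalax* fibrosarcoma and 1.72 and 2.90 in mouse fibrosarcoma (log2 fold changes, limma's adjusted p from 0.00414 to 0.0135). miR-322-5p and miR-503-5p, which promote cell cycle arrest of myoblasts, rose in all 3 comparisons too, by 1.43 to 3.43 and 1.94 to 4.86 (limma's adjusted p from 0.00301 to 0.0486). miR-29c-3p and miR-26a-5p, which increase as myoblasts differentiate, fell in all 3 comparisons, with log2 fold changes of -4.52 and -3.11 in granuloma, -2.92 and -2.24 in *Spalax* fibrosarcoma and -4.11 and -3.02 in mouse fibrosarcoma (limma's adjusted p from 0.000213 to 0.00148). With reads scaled to the library totals, miR-26a-5p stood at -0.55 in *Spalax* fibrosarcoma and -0.63 in mouse (limma's adjusted p = 0.174 and 0.119), and the other falls and rises named above were called. miR-29a-3p and miR-29b-3p of this list fell in granuloma, by -2.04 and -2.08. In *Spalax* fibrosarcoma they stood at -1.14 and -0.36 (limma's adjusted p = 0.129 and 0.616). In mouse they stood at -0.99 and 0.24 (limma's adjusted p = 0.0231 and 0.61). With reads scaled to the library totals both rose in mouse, by 1.39 and 2.62 (limma's adjusted p = 0.0132 and 0.00101). Many of these microRNAs are also expressed by fibroblasts, endothelium or leukocytes.

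miR-127-3p and miR-431-5p of the imprinted Dlk1-Dio3 region differed between the lesions. miR-431-5p rose by 3.61 in granuloma and 3.33 in mouse fibrosarcoma and stood at -0.21 in *Spalax* fibrosarcoma (limma's adjusted p = 0.00592, 0.00708 and 0.85). miR-127-3p rose by 2.16 and 2.33 in the former and had -1.94 in *Spalax* fibrosarcoma (limma's adjusted p = 0.0195, 0.0131 and 0.0352), where it stood at -0.26 with reads scaled to the library totals (limma's adjusted p = 0.74). At the IS of granuloma and fibrosarcoma in *Spalax*, miR-431-5p differed by 5.05 and miR-127-3p by 4.91 (limma's adjusted p = 0.00392 and 0.00291), higher in granuloma.

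**Figure D4:**
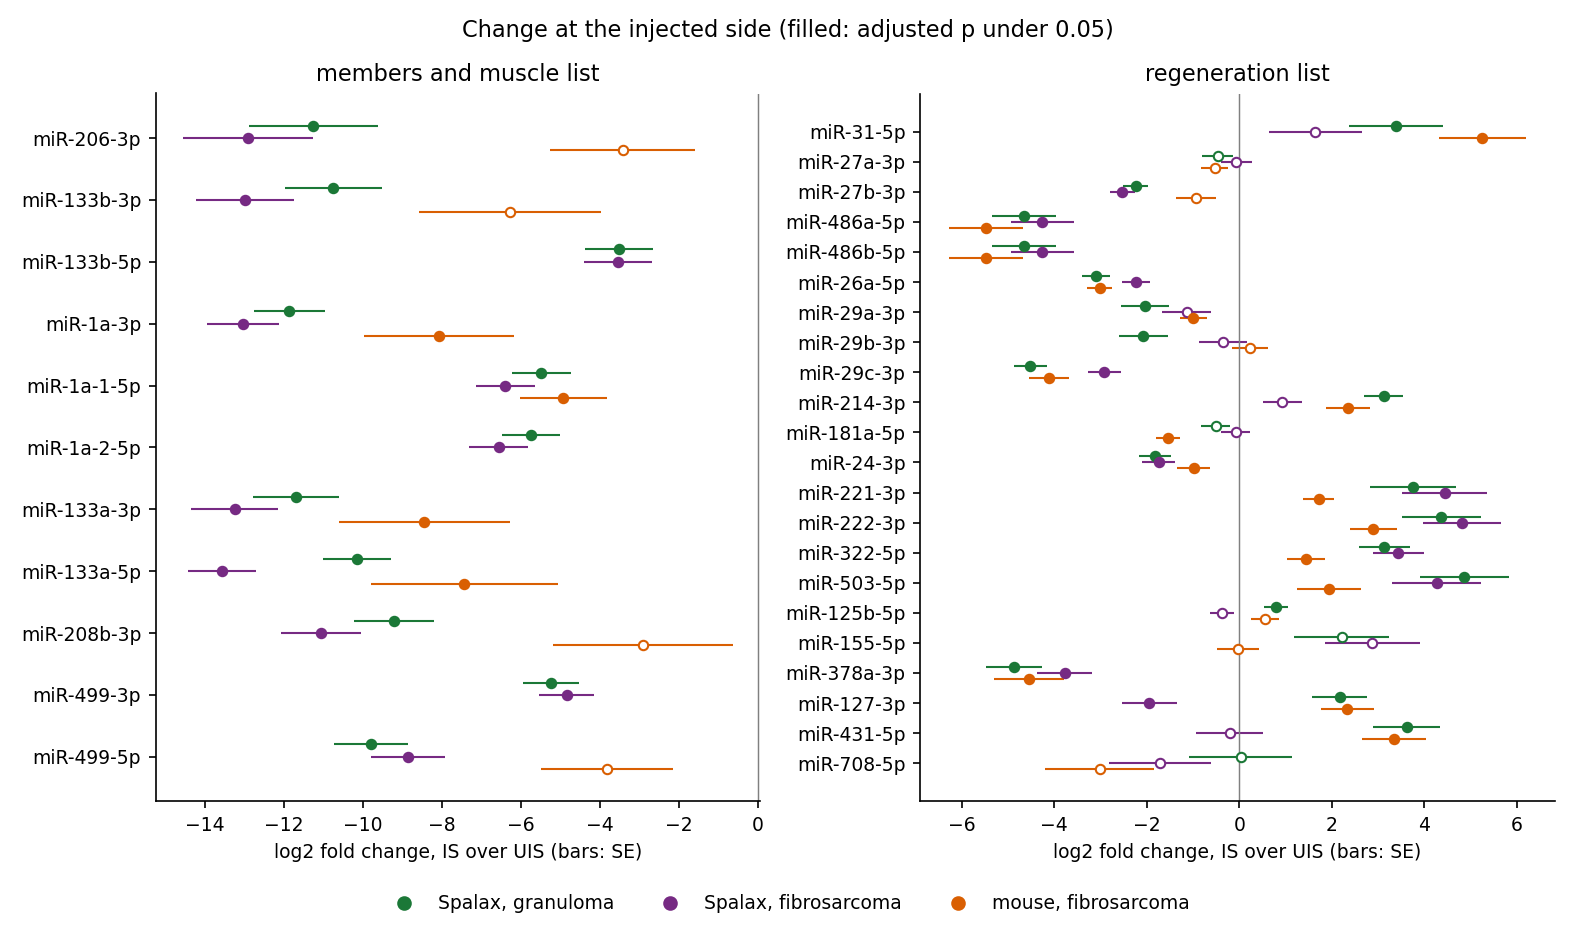
Log2 fold change of IS over UIS with its SE (bars) for the members and the muscle list on the left and for the regeneration list on the right, in 3 comparisons. Filled points had an adjusted p under 0.05. In *Spalax*, miR-206-3p, miR-133b-5p and the muscle list other than miR-1a-3p and miR-133a-3p entered only through their UIS libraries. In mouse, the muscle list other than these 2 microRNAs entered only with UIS libraries. Filled points of all these entries are no test. The members and the muscle list lie left of 0 in all 3 comparisons, and the regeneration list lies on both sides.

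The microRNAs whose log2 values followed miR-206-3p most closely over the 8 *Spalax* libraries were miR-133a-3p (Pearson's r = 0.996), miR-133b-3p (0.994) and miR-1a-1-5p (0.991), and for miR-133b-3p the closest was miR-133a-3p (0.997), followed by miR-1a-3p (0.996) and miR-1a-1-5p (0.996). These values describe mainly the difference between the sides, which all of these microRNAs share. Over the 6 mouse libraries the closest to miR-133b-3p were miR-133a-5p (0.993), miR-133a-3p (0.977) and miR-145b (0.973). Those closest to miR-206-3p were miR-24-1-5p (0.968), miR-27b-3p (0.947) and miR-145b (0.941), and miR-133b-3p was the 4th (0.941). Thus the 3 nearest neighbors of miR-206-3p were muscle microRNAs in *Spalax* and not in the mice. There miR-145b and miR-133b-3p were tied at 0.941 and miR-133a-5p was the 10th (0.902), so this contrast depends on the cut at 3. The highest miR-206-3p value of the mice was that of the tumor of mouse_512.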

How the data were processed

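Small RNA libraries were made with the TruSeq Small RNA kit from both neck sides of 4 *Spalax* and 3 mice. The authors trimmed adaptors, mapped the reads with mirDeep and ran DESeq2, and the build used for microRNA is not given in the sources used here. The submitters' processing notes also name TopHat 1.4.1, HTSeq, DESeq and GRCm38, without saying for which libraries. The values deposited by the authors are a signal, reads divided by a DESeq2 size factor computed from 6 libraries in the mouse table and 14 in the *Spalax* table. Dividing by the smallest value of a column gave whole reads (within 0.01) for 100% of values.

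Groups followed the sample labels. limma 3.58.1 (trend, empirical Bayes) was run on log2(value + 1) after dropping microRNAs that did not reach a value of 10 in 2 libraries (*Spalax*) or 3 libraries (mouse), with a mean per group, on the 8 *Spalax* and the 6 mouse libraries separately, and Benjamini-Hochberg adjustment at 0.05 over all tested microRNAs. A fold change on this scale understates the change of low microRNAs. Ratios of reads used (reads + 1) and exact permutation tests. Alternatives were edgeR 4.0.16 with TMM factors and DESeq2 1.42.0 on recovered reads, a pseudocount of 0.1, no filter, total-read scaling, size factors without the muscle microRNAs, fits of only the libraries compared, no trend, the animal as a block, and leaving out each library. R 4.3.3 was used, and hairpins were read from GENCODE M21. Folds and ratios of reads have exact binomial 95% intervals. The fit was tested on simulated reads.

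Same-numbered libraries come from the same animal and so are paired. Their deviations from the group means correlated at 0.09 in granuloma, -0.02 in *Spalax* fibrosarcoma, and -0.15 and 0.12 in mouse_1023 and mouse_512. Replicate libraries differed far beyond sampling noise (chi-square divided by its degrees of freedom was 327 or more), and p-values measure the spread between animals.

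The members, the lists and the rule for named microRNAs (the members, the muscle and regeneration lists, markers and the nearest neighbors of the members) were chosen with earlier results of these data known. The mature sequences were not used here.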

Additional observations from a re-analysis of the deposited data

How the results depend on the processing

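The falls of miR-206-3p and miR-133b-3p in granuloma and in *Spalax* fibrosarcoma kept their direction and passed the threshold under all 17 alternatives, from -14.32 to -8.17 and -12.94 to -8.55 in granuloma and from -13.53 to -11.45 and -13.63 to -11.40 in fibrosarcoma (log2). Except in the alternative without a filter, miR-206-3p was tested only because its UIS libraries passed it. Scaling to total reads moved the median of all microRNAs up by 1.77 (granuloma), 1.63 (*Spalax* fibrosarcoma) and 2.36 (mouse), and the share of calls that were rises from 52.8% to 83.5%, 40.7% to 82.5% and 55.7% to 92.3%.

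In mouse, miR-133b-3p also passed with DESeq2 (-3.54) and with the animal as a replicate block (-3.48), which rests on 2 mice, and ran from -8.37 to -3.34 when each library was left out. miR-206-3p ran from -5.55 to -1.43 likewise, and over all 14 alternatives from -5.55 to -0.65 (edgeR), with -1.07 under total-read scaling. miR-133b-3p had -3.91 under that scaling. The block could not be fitted to contrasts between animals and changed no other call of the members.

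The difference between granuloma and fibrosarcoma ran from -1.41 to 4.73 for miR-206-3p and from 0.046 to 4.43 for miR-133b-3p when each library was left out, lowest without the granuloma library of spalax_600 and highest, and then called, without that of spalax_976. The same libraries set the range for the injected sides, from -1.67 to 4.48 and from 0.19 to 4.57. DESeq2 called the latter, at 3.84 and 3.64. The difference of miR-133b-3p between uninjected sides, near 0, changed sign with edgeR (-0.0045) and total scaling (-0.043) and ran from -0.041 to 0.33 without each library.

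Counts of called microRNAs ran, without each library, from 129 to 234 in granuloma (216 in all; 129 and 140 without the UIS of spalax_976 or spalax_600, 132 without the IS of spalax_600), 77 to 176 in *Spalax* fibrosarcoma (167; 77 and 78 without the UIS of spalax_2240 or spalax_2230), 0 to 39 for the difference (17; 39 and 31 without the IS of spalax_976 or spalax_2240, 0 without any other library) and 44 to 87 for the injected sides (84; 44 without spalax_600). The difference gave 0 calls with a pseudocount of 0.1, 0 with no filter, 61 with DESeq2 and 5 with the block, and the injected sides 54 when fitted alone. The causes were not tested. No ratio test passed under any of its alternatives. With 1 to 7 reads at the *Spalax* fibrosarcoma sides, the depth limits how far the falls can be measured.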

Other observations

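The tumor of mouse_512 was compared with the other 5 mouse libraries after its values had been seen, as a description of a single library. Over the 799 microRNAs with at least 10 reads in the mouse libraries together, the microRNA with the largest excess of this tumor over the highest of the other 5 libraries was miR-206-5p, by 5.21 on the log2(normalized count + 1) scale, and the next was miR-133b-5p, by 4.67. They were followed by miR-6923-5p (3.95, from 13 reads), miR-483-3p (3.81), miR-335-5p (3.60), miR-483-5p (3.59), miR-335-3p (3.42) and miR-675-3p (3.06). miR-483, miR-335 and miR-675 are encoded in the imprinted genes Igf2, Mest and H19, which are active in fetal tissue. The normalized counts in this tumor were 1741 for miR-483-3p, 12558 for miR-335-5p and 166 for miR-675-3p. The 3p arms stood lower in this order, miR-206-3p at rank 157 and miR-133b-3p at rank 623, since the muscle of the UIS also holds them.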
